A study of Mus musculus with 289 samples.

Results

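The genes of major histocompatibility complex (MHC) class I antigen presentation and of the interferon response were followed in single keratinocytes from unwounded mouse tail skin. The members were 39 gene symbols listed by name, not by any measured value, and 32 of them were rows of the count table, which held 15019 genes. Ifit2, Ifit3, Rtp4, Bst2, Gbp2, Gbp3 and Gbp7 are not analysed here. The 32 members comprised 5 class I molecules, 8 genes of peptide supply, 7 receptors, kinases and transcription factors, 9 intracellular effectors, and 3 membrane proteins of the Ifitm family.

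The mice carried 2 alleles, Lrig1-EGFP-ires-CreERT2 and the reporter Rosa26-fl/STOP/fl-tdTomato, on a mixed CBA and C57BL/6 background, in which Cre acts only in cells that use the Lrig1 promoter (the junctional zone and the upper hair follicle) and tdTomato then marks those cells and their progeny. Per the study's methods the mice were female adults, received a single topical dose of hydroxytamoxifen, and were then treated repeatedly with PRT4165 or with vehicle and sampled hours after the last treatment. PRT4165 inhibits Ring1a and Ring1b, the ubiquitin ligases of Polycomb repressive complex 1. Tomato-positive cells were sorted 1 per well and sequenced as full-length cDNA, so each library is 1 cell and the plate is the replicate. Vehicle (labelled AC) and PRT4165 had 2 plates each. The labels also carry a code, PR9 on both vehicle plates and PR12 on both PRT4165 plates, whose meaning is not given, so the code and the treatment cannot be told apart. The paper describes these data as 2 independent experiments, each based on biological replicates, and does not say how these relate to the plates. The number of animals on a plate is not given in the labels, so p-values measure the spread between plates, which may be technical.

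Of 289 cells, 274 had at most 50% mitochondrial counts and were kept. These were 70 and 55 vehicle cells on plates 1 and 2, and 72 and 77 PRT4165 cells. The kept cells of a plate summed to 25761756 to 41592716 counts. The median count per cell was 141985 on vehicle plate 1 and 429383 to 538754 on the other plates. In counts per 1000000 counts of the plate (CPM), the basal keratinocyte markers summed to between 1439 and 3325 on a plate, and the summed level of the Langerhans cell, T cell and macrophage markers was 0.823 to 5.92 CPM, against 1954 to 3719 CPM for the members. Only 5 of 7 Langerhans cell, 3 of 7 T cell and 3 of 6 macrophage markers were rows of the table. Any marker of these lists had a count in 34, 77 and 42 cells, in that order. Ptprc, the pan-leukocyte gene, had a count in 13 cells and Cd3d, a T cell marker, in 66. The fibroblast markers summed to 84.3 CPM on PRT4165 plate 1 and to 7.28 to 23.1 CPM on the other plates. Any of them had a count in 103 cells. The melanocyte markers summed to 0.944 to 5.16 CPM, with a count of any in 63 cells. Pecam1, an endothelial marker, had a count in all 274 kept cells, so it marks no cell type here.

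Class I molecules, made of a heavy chain and the light chain beta-2-microglobulin, show peptides from inside the cell to CD8 T cells and natural killer cells. The peptides are cut by the proteasome, carried into the endoplasmic reticulum by the Tap transporter and loaded with the help of tapasin. Interferons signal through Jak kinases to Stat and Irf factors, which bind interferon-stimulated response elements (ISRE) and gamma-activated sites (GAS) in the promoters of their targets. Class I genes have a level of their own in most cells and are raised further by interferon, whereas genes such as Isg15 and Ifit1 are nearly silent without it.

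The sequences upstream of the members on which the results turn were read from RefSeq on GRCm38, the build used by the study. These sequences are shown for their matches, or lack of matches, to short forms of these elements. Each was searched on both strands, over 250 bases before the start site, for an ISRE core (GAAANNGAAA), for a shorter IRF core (AANNGAAA, contained in every ISRE core match) and for a GAS (TTCNNNGAA). Capitals mark matches to the ISRE core or the IRF core on either strand, and bases inside the annotated gene were left off, except for H2-D1. The first 3 sequences belong to Ifitm3 (chr7:141010771-141010994, minus strand), to Ifitm2 (chr7:140955988-140956211, minus strand) and to B2m (chr2:122147437-122147685, plus strand). The others belong to H2-K1 (chr17:34000348-34000597, minus strand), to H2-D1 (chr17:35262933-35262962, plus strand, a stretch of 30 bases around the match, since its whole RefSeq window lies inside the annotated gene) and to Isg15 (chr4:156200819-156201068, minus strand).
Ifitm3: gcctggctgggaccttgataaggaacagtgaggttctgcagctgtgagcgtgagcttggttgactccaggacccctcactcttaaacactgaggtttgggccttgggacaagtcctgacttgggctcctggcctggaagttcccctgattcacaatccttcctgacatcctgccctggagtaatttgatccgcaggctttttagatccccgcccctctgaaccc
Ifitm2: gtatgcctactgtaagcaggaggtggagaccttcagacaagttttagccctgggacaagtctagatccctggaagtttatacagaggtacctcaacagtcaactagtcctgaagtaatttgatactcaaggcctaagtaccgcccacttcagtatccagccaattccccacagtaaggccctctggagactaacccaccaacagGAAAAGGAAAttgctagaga
B2m: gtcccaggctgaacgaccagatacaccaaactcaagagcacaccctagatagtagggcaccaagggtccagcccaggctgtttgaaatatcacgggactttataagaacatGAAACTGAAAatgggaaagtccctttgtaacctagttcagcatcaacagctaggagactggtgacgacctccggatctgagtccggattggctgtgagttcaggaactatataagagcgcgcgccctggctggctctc
H2-K1: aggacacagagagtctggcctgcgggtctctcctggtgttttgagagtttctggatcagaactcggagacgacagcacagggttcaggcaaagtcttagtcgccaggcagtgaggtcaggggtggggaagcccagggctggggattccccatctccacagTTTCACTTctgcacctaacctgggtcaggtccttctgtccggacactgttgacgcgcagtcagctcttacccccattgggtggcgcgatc
H2-D1: catctcctcagTTTCACTTctgcacctaac
Isg15: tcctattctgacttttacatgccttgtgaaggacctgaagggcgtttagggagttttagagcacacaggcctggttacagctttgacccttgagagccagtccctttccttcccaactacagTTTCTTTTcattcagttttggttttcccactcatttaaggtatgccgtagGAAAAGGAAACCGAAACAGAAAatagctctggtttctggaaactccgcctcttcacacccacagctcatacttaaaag

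The neighbours Ifitm2 and Ifitm3 differed in this window. The Ifitm2 sequence held 1 ISRE core, which began 46 bases before the start site, and the Ifitm3 sequence held none of the 3 motifs. B2m held 1 ISRE core, further from its start than that of Ifitm2. H2-K1 and H2-D1 shared the same run of letters around 1 IRF core, 90 and 150 bases before their starts, and had no ISRE core. Isg15 held 3 ISRE core matches that overlapped one another within 1 run, beside 4 IRF core matches. Among all 33 promoters of the 29 members with an entry, 7 (21.2%) held an ISRE core, against 2.98% of the 32851 promoters of the table. These were B2m, H2-T23, Ifit1, Ifitm2, Isg15, Rsad2 and Stat2. The IRF core occurred in 12 of the 33 (36.4%) against 21.3% of all, and the GAS in 2 (6.06%, Irf1 and Psmb8) against 7.02%. A match is a run of letters and not a site shown to be bound. The absence of a match in this window does not show that a gene lacks such an element. Ifi27, Tap2 and Parp14 were not searched.

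The level of a member is given as CPM, its counts summed over the kept cells of a plate and scaled by the counts of all genes in those cells. The 32 members together took 3719, 2537, 2377 and 1954 CPM on vehicle plate 1, vehicle plate 2, PRT4165 plate 1 and PRT4165 plate 2, the order used for every set of 4 values. Without B2m the sums were 1108, 1395, 1101 and 1040 CPM, so most of the gap between the plates was B2m. A cell had a count for a median of 8.5, 9, 10 and 9 of the 32 members, and the lowest and highest cells of all plates had 1 and 18. In the plot of member levels by role, a few members carried most of the counts and many lay near 0.

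**Figure D1:**
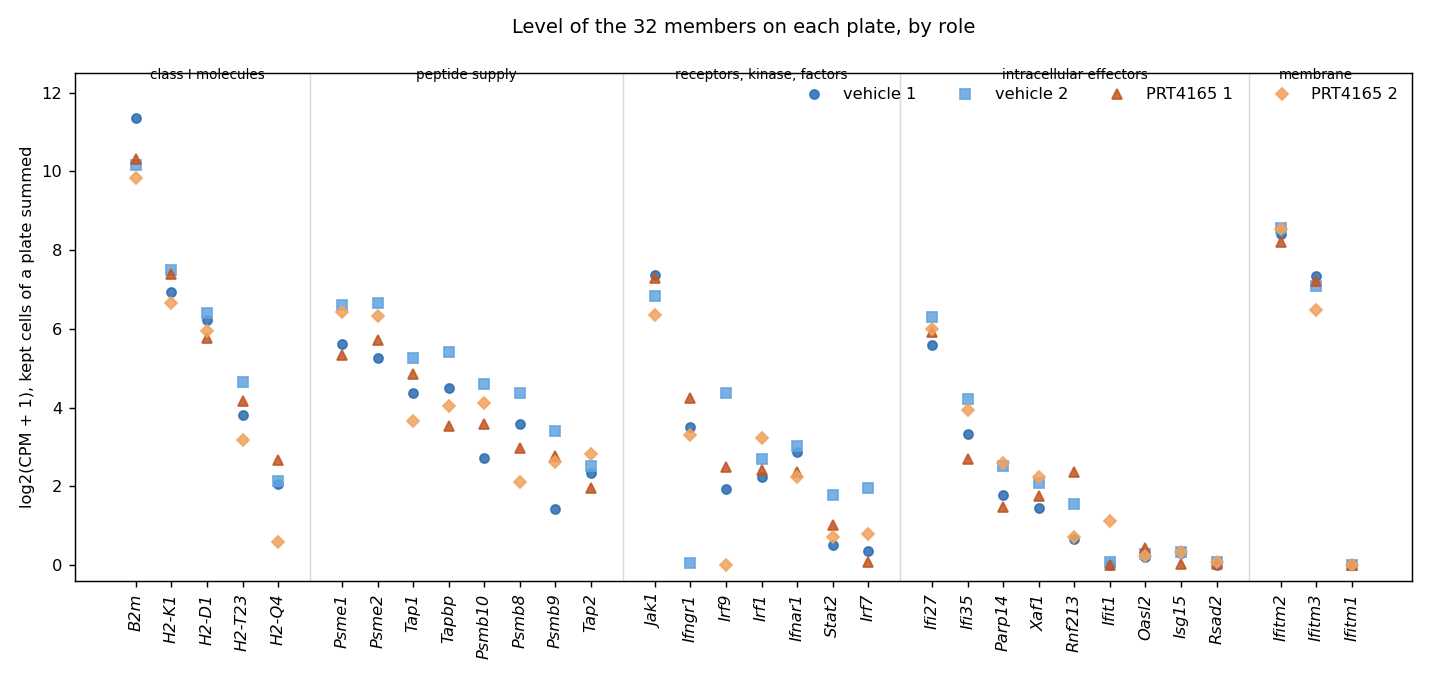
The level of each of the 32 members, as log2(CPM + 1) of the summed kept cells (y axis), is plotted for each of the 4 plates (symbols) and grouped by role (x axis). B2m reached 914 to 2611 CPM and Ifitm2 296 to 378 CPM, while Ifit1, Oasl2, Isg15 and Rsad2 lay near 0 and Ifitm1 was at 0 on every plate.

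Among the class I molecules, B2m, which encodes the light chain of every class I molecule, had 2611, 1142, 1276 and 914 CPM. Vehicle plate 1 stood highest, and 1 cell of it held 32.9% of its B2m counts. A B2m count was present in 247 of 274 cells. H2-K1 and H2-D1 encode the classical heavy chains, and their plates overlapped between the treatments for H2-K1 and not for H2-D1. H2-K1 had 121.8, 180, 165.8 and 99.2 CPM with a count in 66.8% of cells, and H2-D1 had 74.2, 84.2, 53.3 and 60.4 CPM with a count in 69.0% of cells. Of the non-classical heavy chain genes, H2-T23 was at 7.98 to 23.9 CPM with a count in 133 cells and H2-Q4 at 0.5004 to 5.38 CPM with a count in 38 cells. B2m lies on chromosome 2 (chr2:122147686-122153083), H2-K1 (chr17:33996017-34000347) and H2-D1 (chr17:35262730-35267499) in the MHC of chromosome 17. Heavy chain genes share reads, since of all windows of 75 bases, the read length, 3.1% of H2-K1 windows and 5.56% of H2-D1 windows occur in another gene, and 24 windows occur in both. Salmon divides such reads, and 52.5% of the H2-K1 counts and 69.3% of the H2-D1 counts above 0 were not whole numbers, against 0 for B2m. The heavy chain values are therefore less certain than those of B2m, also because the mixed background can carry alleles that are not in the C57BL/6 reference.

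For peptide supply, the subunits of the proteasome activator stood highest, also per kilobase of transcript. Psme1, its alpha subunit, had 48.3, 96.3, 39.2 and 85.4 CPM, and Psme2, its beta subunit, had 37.0, 100.2, 51.6 and 79.0 CPM. Both were higher on the plate numbered 2 of each treatment. Tap1, which forms the peptide transporter with Tap2, had 19.8, 37.6, 27.8 and 11.6 CPM and a count in 79 cells. Tapbp, which encodes tapasin, had 21.5, 41.8, 10.5 and 15.6 CPM and a count in 100 cells. Psmb8, a catalytic subunit of the immunoproteasome, had 10.99, 19.5, 6.92 and 3.34 CPM and a count in 67 cells. For both Tapbp and Psmb8 the vehicle plates lay above the PRT4165 plates. Psmb10, Psmb9 and Tap2 ranged from 1.67 CPM (Psmb9, vehicle plate 1) to 23.4 CPM (Psmb10, vehicle plate 2). Psme2 shares 22.9% of its windows with its copy Psme2b, and Tapbp shares 18.6% with neighbouring or overlapping genes, so their counts may be split.

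Signalling was read mainly through Jak1, the kinase used by all interferon receptors, at 163.8, 113, 155.7 and 80.9 CPM with a count in 52.9% of cells. Jak1 alone made up most of this group, and its plates overlapped between the treatments. Ifngr1, a chain of the interferon gamma receptor, had 10.3, 0.030, 18.0 and 8.94 CPM and a count in 29 cells, of which 1 was on vehicle plate 2. Irf9, a DNA-binding factor of the interferon response, had 2.83, 19.9, 4.61 and 0 CPM and a count in 19 cells. Single cells set these values, since 1 cell held 89.04% of the Irf9 counts of vehicle plate 1 and 54.7% of those of vehicle plate 2. Irf1, Ifnar1 and Stat2 ranged from 0.43 to 8.29 CPM. Irf7, an interferon-induced amplifier of the response, had 0.272, 2.85, 0.052 and 0.721 CPM and a count in 6 cells.

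Among the intracellular effectors, Ifi27, an interferon-inducible gene, had 47.3, 78.4, 59.5 and 63.3 CPM and a count in 51.5% of cells, and its plates overlapped between the treatments. Ifi35 had 9.08, 17.7, 5.46 and 14.2 CPM in 51 cells, and Parp14, an ADP-ribosyltransferase, had 2.45, 4.72, 1.77 and 5.001 CPM in 24 cells. Xaf1, whose product binds the apoptosis inhibitor Xiap, had 1.74, 3.27, 2.39 and 3.67 CPM in 40 cells, and Rnf213, a large ubiquitin ligase, had 0.58, 1.93, 4.11 and 0.65 CPM. The genes that interferon raises most sharply in many cells were close to absent. Ifit1, which binds foreign RNA, had a count in 5 cells, Rsad2 (viperin) in 5, Isg15, a ubiquitin-like modifier, in 12, and Oasl2, of the oligoadenylate synthetase family, in 16. Of Ifit1, Isg15, Rsad2, Oasl2 and Irf7, at least 1 had a count in 39 of 274 cells, at least 2 in 5 cells, all on vehicle plates, and 3 or more in 0 cells. No cell therefore carried counts for more than 2 of these 5 genes.

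The Ifitm genes encode small membrane proteins that restrict the entry of viruses, and they lie together on chromosome 7. Ifitm2 (chr7:140954837-140955987, minus strand) had 336, 378, 296 and 370 CPM and a count in 239 cells. Ifitm3 (chr7:141009586-141010770, minus strand) had 161.7, 135.2, 146.6 and 88.4 CPM and a count in 51.5% of cells. Ifitm1 (chr7:140967221-140969825, plus strand) lies between them and had no count in 274 cells, which allows a share of up to 1.09% of cells with a count. Ifitm2 and Ifitm3 share 0 windows of 75 bases with each other, but 42% of the Ifitm2 windows (244 of 581) occur in other genes, mainly the pseudogenes Gm45717, Gm8865 and Gm11951, so part of the Ifitm2 counts could have been placed elsewhere.

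Levels of different genes were compared per kilobase of the longest transcript, scaled to 1000000 over the 14657 genes with a known length. On this scale the mean over the 4 plates was 2101 for B2m (SD 1060, n = 4) and 642 for Ifitm2 (SD 76.9, n = 4), and these plates did not overlap. Ifitm3 followed at 239 (SD 58.4), H2-K1 at 107.2 (SD 31.2), Psme2 at 85.3 (SD 37.8), Ifi27 at 77.7 (SD 18.0) and Psme1 at 74.04 (SD 31.7), each with n = 4. Neighbours among the last 4 of these differed by less than their SD. The next, H2-D1 at 39.6 (SD 8.97) and Jak1 at 31.9 (SD 9.55), did not differ from each other beyond their spread. Below them came Psmb10 at 13.2, H2-T23 at 12.9, Ifi35 at 10.4, Tap1 at 10.1 and Tapbp at 9.50, and the remaining members were at 7.73 or less. B2m was above 99.6% of these genes and Ifitm2 above 98.8%.

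Other genes of the pathway were taken from a list of 115, of which 79 were in the table. The highest of the signalling genes were Ifnar2 at 37.6, 37.4, 17.4 and 29.3 CPM, Jak2 at 24.8, 29.01, 25.1 and 9.88 CPM and Stat3 at 11.4, 21.2, 15.6 and 13.8 CPM. Ptpn2, a phosphatase that switches Jak and Stat signals off, had 58.6, 65.2, 61.0 and 69.96 CPM. Canx and Pdia3, which fold class I heavy chains along with many other proteins, had 287 to 722 and 269 to 495 CPM. Psmb6, the constitutive proteasome subunit that Psmb9 replaces in the immunoproteasome, had 122.1, 220, 153.8 and 156.5 CPM, against 1.67 to 9.56 CPM for Psmb9. Per kilobase the means over the 4 plates were 251 for Psmb6 and 5.06 for Psmb9, so the constitutive subunit was the higher of the pair.

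The comparison of PRT4165 with vehicle asks whether inhibition of Polycomb repressive complex 1 moves these genes in unwounded skin. No member passed the test. Of 27 members with enough counts, 0 were called by edgeR's quasi-likelihood test on the plate sums, beside 0% of all 12791 genes tested, and 0 had an unadjusted p under 0.05, beside 630 of all genes. DESeq2 called 104 of all genes higher and 70 lower, and 0 members, with a smallest adjusted p of 0.658 among the members. The smallest adjusted p among the members with edgeR was 0.997. Ifit1, Isg15, Rsad2, Oasl2 and Ifitm1 had too few counts to test. The spread between plates was wide, with a biological coefficient of variation of 76.9%, so changes of the sizes given here were not detectable at this spread.

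**Figure D2:**
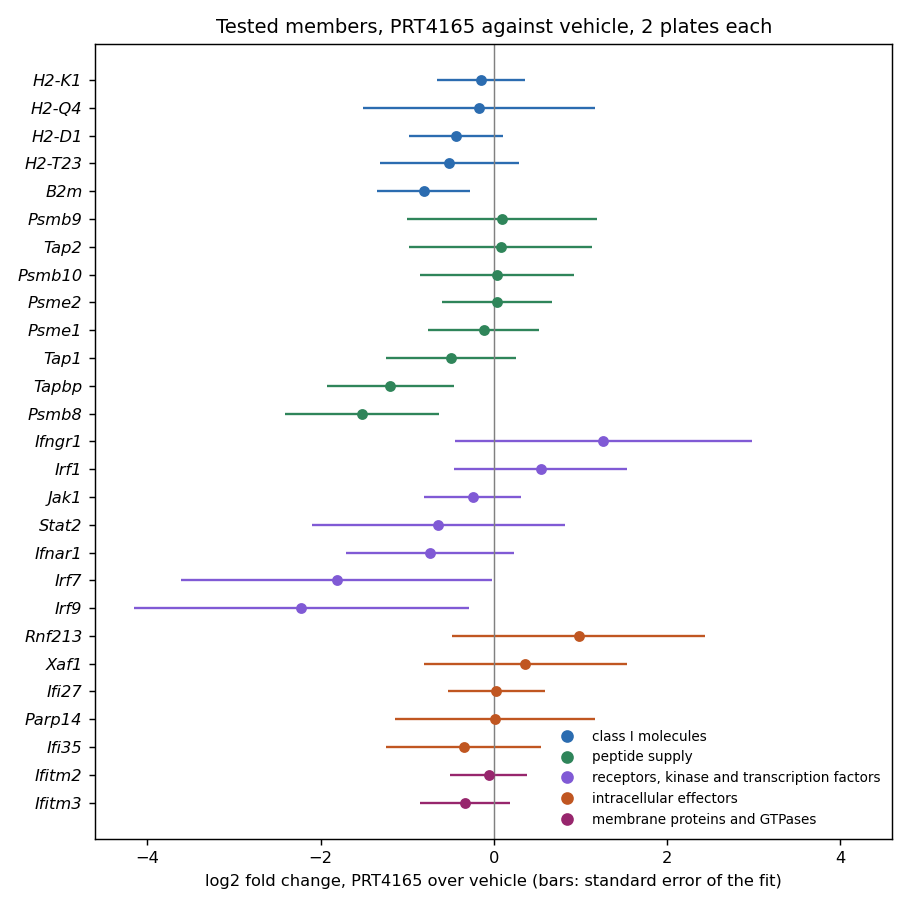
The log2 fold change of PRT4165 over vehicle (x axis) is plotted for the 27 tested members (y axis) with the standard error of the fit as a bar, coloured by role. The values ranged around 0, from -2.22 for Irf9 to 1.27 for Ifngr1, and 0 members passed the test.

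The 5 class I members each had a fold change below 0, whereas H2-T22, H2-Q7 and H2-Q10, the highest of the other class I genes, had 1.10 (SE 0.84), 0.24 (SE 0.96) and 0.42 (SE 1.54). B2m had a log2 fold change of -0.81 (SE 0.54, p = 0.168 by edgeR before adjustment), but without vehicle plate 1, whose highest cell held a large part of its counts, the value was 0.11. With the highest cell of each plate left out it was -0.61. For H2-K1 the log2 fold change was -0.15 (SE 0.51) and for H2-D1 -0.44 (SE 0.54), and only H2-D1 had both PRT4165 plates below both vehicle plates. In peptide supply, Psmb8 had -1.52 (SE 0.89, p = 0.124 by edgeR before adjustment) and Tapbp -1.19 (SE 0.74, p = 0.143 by edgeR before adjustment), the members of smallest p, and both groups of plates stood apart. Tap1 had -0.49 (SE 0.75), while Psme1 at -0.12 (SE 0.64) and Psme2 at 0.03 (SE 0.63) were near 0.

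For Jak1 the log2 fold change was -0.24 (SE 0.56). Irf9 at -2.22 (SE 1.94), Irf7 at -1.81 (SE 1.80) and Ifngr1 at 1.27 (SE 1.71) had wide errors, and each rested on few cells. Single plates and cells moved these values, to 8.86 for Ifngr1 without vehicle plate 1 and 5.38 without the highest cell of each plate, and to -11.47 for Irf9 without PRT4165 plate 1, with 0 calls. The effectors Ifi27 at 0.03 (SE 0.56), Parp14 at 0.02 (SE 1.16) and Ifi35 at -0.35 (SE 0.89) and the membrane proteins Ifitm2 at -0.06 (SE 0.45) and Ifitm3 at -0.34 (SE 0.52) had values smaller than their errors. Of the 27 members, 17 had a fold change below 0 (63%, against 50.6% of all genes), and their median log2 fold change was -0.17, against -0.02 for all genes. Both PRT4165 plates lay below both vehicle plates for 4 members, H2-D1, Tapbp, Psmb8 and Ifnar1 (14.8%, against 16.3% of all genes), and above them for 0 members (against 15.4%). Of the 64 other pathway genes tested, 0 were called, and their median was -0.06.

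To place the members in keratinocyte compartments, the cells were clustered without any member or other pathway gene. Cluster A (83 cells) had raised levels of 7 of 8 markers of differentiated interfollicular epidermis and 8 of 8 of the upper hair follicle. Cluster B (65 cells) had raised 5 of 6 basal, 6 of 7 cycling, 2 of 7 bulge and 1 of 8 sebaceous gland markers. Cluster C (60 cells) had raised 5 of 7 bulge and 2 of 6 basal markers. Cluster D (39 cells) had raised 3 of 7 bulge and 2 of 6 basal markers, with Cldn10 and Col14a1 as leading genes. It also had 1 raised marker each of the upper hair follicle, cycling and fibroblast lists, so its markers did not name a single compartment. The bulge list holds Postn, which the paper uses as a marker of the infundibulum. Cluster E (27 cells) was sebaceous gland-like, with 8 of 8 markers, and had only 2 and 3 cells per vehicle plate, against 6 and 16 per PRT4165 plate, so it was described and not tested. The median count per cell was 572398 in A, 338098 in B, 151404 in C, 450314 in D and 594036 in E. No doublet caller was run. The clusters were formed from the same cells, which makes the p-values between them smaller than for compartments defined independently.

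Ifitm3 had the smallest p of all members between clusters, in A against B. In cluster B it had 569, 505, 514 and 162.5 CPM, and 61 of 65 cells had a count. In cluster A it had 10.6, 0.262, 3.70 and 6.54 CPM, and 11 of 83 cells had a count, although A had the deeper cells. The levels in A lay below those in B on each of the 4 plates, without overlap and in both treatments. Clusters C and D lay between, with 68.1, 48.9, 30.1 and 88.4 CPM in C (33 of 60 cells) and 316, 109, 84.2 and 78.3 CPM in D (18 of 39 cells). The sebaceous gland-like cells of E had 35.6, 0, 214 and 160 CPM (18 of 27 cells), so its vehicle plates, with 2 and 3 cells, lay below its PRT4165 plates. Among the 246 cells thinned to 50000 counts, a count for Ifitm3 remained in 12.2% of A and 93.2% of B.

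Ifitm2 was also lowest in A and, by the mean of the plates, highest in B, with a smaller gap. It had 130, 107.7, 72.3 and 110 CPM in A (57 of 83 cells) and 707, 558, 786 and 605 CPM in B (65 of 65 cells). In C it had 512, 568, 151.5 and 437 CPM, in D 641, 341, 340 and 402 CPM, and in E 220, 468, 276 and 537 CPM. For Ifitm2, cluster A was the lowest on all 4 plates, and its range overlapped none of B, C and D. Cluster B was the highest on 3 of 4 plates, since C was above it on vehicle plate 2.

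**Figure D3:**
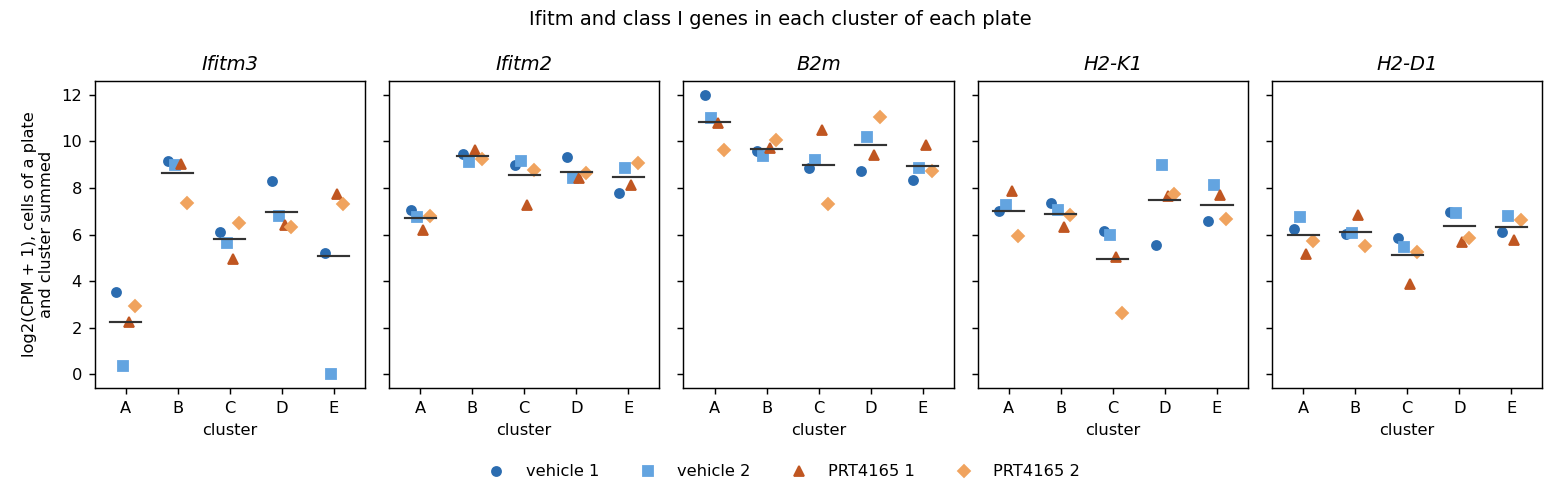
The level of Ifitm and class I genes, as log2(CPM + 1) of the summed cells of a plate and cluster (y axis), is plotted for the 5 clusters (x axis) and the 4 plates (symbols). Ifitm3 lay at 0.262 to 10.6 CPM in cluster A and at 162.5 to 569 CPM in cluster B, while the plates of B2m overlapped between A and B.

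In edgeR's quasi-likelihood test with the plate as a term, Ifitm3 was lower in A than in B with a log2 difference of -6.13 (SE 0.96, adjusted p = 0.0144) and Ifitm2 by -2.22 (SE 0.43, adjusted p = 0.0447). Against C the values were -3.73 for Ifitm3 (SE 0.85, edgeR adjusted p = 0.0492) and -1.91 for Ifitm2 (SE 0.43, edgeR adjusted p = 0.0462), while the median gene differed by 0.34 in that pair, or by 0.12 with RLE size factors. Against D neither passed, with -4.05 (SE 0.87, edgeR adjusted p = 0.0903) and -1.24 (SE 0.42, edgeR adjusted p = 0.268), although Ifitm3 passed in cells thinned to 50000 counts (-3.48, edgeR adjusted p = 0.0258). Ifitm2 in A against B no longer passed with RLE size factors (edgeR adjusted p = 0.0514), without the filter on low counts (0.0784) or with the members left in the clustering (0.0548). In A against C, neither gene passed without that filter (edgeR adjusted p = 0.0533 for Ifitm3 and 0.0927 for Ifitm2). Ifitm2 in that pair also did not pass with the members left in the clustering (edgeR adjusted p = 0.0562). With RLE size factors both genes passed in A against C (edgeR adjusted p = 0.0418 and 0.0391). These 2 genes were the 2 of 25 tested members called lower in A than in B and than in C, beside 0.0926% and 0.491% of all 10799 genes, and none was called in A against D, beside 0.0741%. Between B, C and D, 0 genes were called in either direction (0% in each pair), and Ifitm3 in B against C had 2.41 (SE 0.81, edgeR adjusted p = 0.338). The calls rested on all 4 plates. Leaving out any plate, vehicle or PRT4165, ended all 4 calls, with log2 fold changes for Ifitm3 between A and B of -6.75 to -5.48 and adjusted p of 0.0756 to 0.167 by edgeR. For Ifitm2 between A and B the edgeR adjusted p was then 0.151 to 0.348.

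After Ifitm3 and Ifitm2, Xaf1 had the smallest p of the tested members between clusters. It had 0.065 to 0.337 CPM in A against 5.57 to 45.0 CPM in C, without overlap, in 7 of 83 and 11 of 60 cells, and a log2 fold change between them of -6.86 (SE 1.64, edgeR adjusted p = 0.0595). Its 1.10 to 8.32 CPM in B also lay above A on all 4 plates, with -3.98 (SE 1.48, edgeR adjusted p = 0.299). For Xaf1 in A over D the log2 difference was -1.51 (SE 1.35, edgeR adjusted p = 0.816), with ranges that overlapped. In C over D it was 5.35 (SE 1.53, edgeR adjusted p = 0.329), and in B over C -2.88 (SE 1.49, edgeR adjusted p = 0.494). Ifi35 had a count in 22 of 83 cells of A and in 3 of 65 of B and 2 of 60 of C, with log2 fold changes of A over B of 4.05 (SE 1.80, edgeR adjusted p = 0.422) and of A over C of 4.51 (SE 1.83, edgeR adjusted p = 0.248). Neither gene passed the test. Rnf213 had too few counts to be tested between clusters. It had 0.801 to 13.4 CPM in B (12 of 65 cells). In A it had 0 to 0.201 CPM (1 of 83 cells) and in C 0 to 0.375 CPM (1 of 60 cells), both without overlap with B.

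No class I molecule passed the test between clusters. The share of all genes whose plate ranges do not overlap between a pair of clusters is not given here. Ranges without overlap alone, in this paragraph and for the genes above, therefore do not set a member apart from other genes. B2m had 4068, 2026, 1750 and 785 CPM in A and 763, 668, 842 and 1079 CPM in B, a log2 fold change of 1.85 (SE 0.84, edgeR adjusted p = 0.448), with A higher on 3 of 4 plates. In C it had 466, 589, 1438 and 156.01 CPM and in D 419, 1156, 691 and 2144 CPM, so the clusters overlapped. H2-K1 had 79.7 to 161.2 CPM in B and 5.27 to 70.5 CPM in C, without overlap, with a log2 fold change of 1.31 (SE 0.86, edgeR adjusted p = 0.610). H2-D1 had a log2 difference of A over B of 0.28 (SE 0.65) and of A over C of 0.88 (SE 0.65). H2-T23 was lowest in A by its mean over plates, like the Ifitm genes, and its range in A (3.84 to 12.9 CPM) lay below that in D (14.2 to 31.1 CPM), with a log2 difference of -0.71 (SE 0.99, edgeR adjusted p = 0.918). Cluster C also had the shallowest cells, whose part in the low H2-K1 values was not tested. H2-K1 had a count in 63 of 83 cells of A, 43 of 65 of B, 22 of 60 of C, 29 of 39 of D and 26 of 27 of E. Among the peptide supply genes, Psme2 was higher in B (62.3 to 113 CPM) than in D (27.2 to 60.5 CPM) on every plate, with 1.39 (SE 0.67, edgeR adjusted p = 0.951), and it had a count in 27 of 27 cells of E, at 139.4, 361, 242 and 117 CPM. The levels of Tap1 (0 to 35.6 CPM in B, 19.1 to 229 CPM in D) overlapped. Tap2 had 5.94 to 35.6 CPM in D and 1.13 to 3.49 CPM in A, without overlap, with a log2 difference of A over D of -2.60 (SE 1.70, edgeR adjusted p = 0.686), and Psmb10 had 3.03 (SE 1.69, edgeR adjusted p = 0.603) in that pair. Jak1 had 92.4 to 303 CPM in B and 27.4 to 97.1 CPM in C, with 1.39 (SE 0.63, edgeR adjusted p = 0.434), and Ifi27 3.75 to 236 CPM in C and 9.54 to 47.6 CPM in D, with 2.26 (SE 1.40, edgeR adjusted p = 0.625). The remaining tested values did not pass either.

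Within a single cluster the treatment again gave no call. Of 21 members tested in A, 22 in B, 20 in C and 22 in D, 0 were called, beside 0% of all genes. Ifitm3 had a log2 fold change of PRT4165 over vehicle of 0.02 (SE 1.87) in A and -0.86 (SE 0.71) in B, and Ifitm2 had -0.24 (SE 0.81) in A and -0.01 (SE 0.59) in B. B2m had -1.15 (SE 0.67) in A, 0.33 (SE 0.57) in B, 2.08 (SE 1.51) in C and 1.07 (SE 0.79) in D. Unadjusted p under 0.05 occurred for 4 members in C, where the PRT4165 plates had 10 cells each, and for 0 members in A, B and D. These were Tapbp (18.0, 35.6, 0.207 and 0 CPM), Psmb9 (3.75, 10.1, 0 and 0 CPM), Ifnar1 (4.50, 16.1, 0 and 0 CPM) and Parp14 (17.6, 9.88, 0 and 0 CPM), with edgeR adjusted p of 0.4998 to 0.579. Counts of these genes came from 4 to 8 of the 60 cells of C. By its p, Tapbp ranked only 477 among all genes tested in C, so many genes outside the members also lay under 0.05. The share of all genes under 0.05 in C is not given here, so the 4 members cannot be read as set apart from other genes. With the replicate number as a block, 0 members had an unadjusted p under 0.05 in C. Tapbp in B had 7.37, 20.6, 22.5 and 19.1 CPM, with no such gap. The test of whether the treatment difference differed between clusters called 0 members in 6 pairs of clusters, beside 0% of all genes. An unadjusted p under 0.05 occurred for 8 values over all pairs, of Psmb9, Ifnar1, Tapbp and Ifngr1. All but that of Ifngr1 in A against D involved cluster C. Ifnar1 in C against D ranked only 623 by p among all genes of that pair, so many other genes also lay under 0.05. The share of all genes under 0.05 is not given here, so these values do not set the members apart.

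To ask whether the members varied together from cell to cell, Spearman's rho of log2(CPM + 1) was taken over the cells of each plate and averaged over the 4 plates. It is given as a description. Cells share depth, and genes of a cell share a library. The 11 members with a count in at least 25% of the cells of every plate were B2m, H2-K1, H2-D1, H2-T23, Psme1, Psme2, Tapbp, Jak1, Ifi27, Ifitm2 and Ifitm3. Their 55 pairs had a median rho of 0.057, and 40 of 55 (72.7%) lay above 0. The 7413175 pairs among all 3851 genes at the same limit also had a median of 0.057, with 73.9% above 0. The median pair of members thus varied together as much as the median pair of genes.

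**Figure D4:**
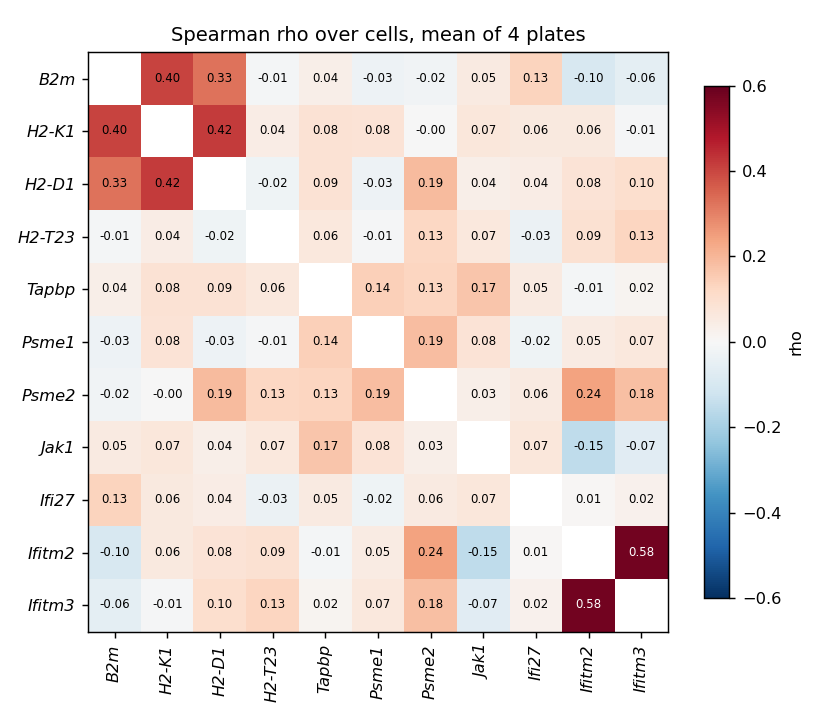
Spearman's rho over cells, as the mean of the 4 plates (colour), is drawn for each pair of the 11 members with counts in at least 25% of cells. The pairs of B2m, H2-K1 and H2-D1 (0.326 to 0.418) and the pair of Ifitm2 and Ifitm3 (0.577) stand out from a median of 0.057.

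Within the group, 2 sets of genes stood out. Ifitm2 and Ifitm3 had a rho of 0.667, 0.335, 0.649 and 0.657, with a mean of 0.577 that exceeded 99.9% of all pairs. Among B2m and the classical heavy chains, H2-K1 with H2-D1 had 0.542, 0.630, 0.111 and 0.389 (mean 0.418). B2m with H2-K1 had 0.497, 0.346, 0.350 and 0.425 (mean 0.405), and B2m with H2-D1 had 0.354, 0.249, 0.377 and 0.325 (mean 0.326). Each of these means exceeded at least 99.5% of all pairs. The non-classical H2-T23 did not share this, with means of -0.012 with B2m, -0.025 with H2-D1 and 0.044 with H2-K1. These lay below the median of all pairs, 0.057. B2m shares no window of 75 bases with H2-K1 or H2-D1, whereas H2-K1 and H2-D1 share 24. Taken within each plate and cluster of at least 10 cells, B2m with H2-K1 kept a mean rho of 0.388 and lay above 0 in 15 of 15 groups, H2-K1 with H2-D1 had 0.339 (13 of 15), and B2m with H2-D1 dropped to 0.238 (13 of 15). Ifitm2 with Ifitm3 dropped to 0.328 (12 of 15). In cells thinned to 50000 counts the means were 0.530 for Ifitm2 with Ifitm3, 0.402 for H2-K1 with H2-D1, 0.367 for B2m with H2-K1 and 0.260 for B2m with H2-D1.

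**Figure D5:**
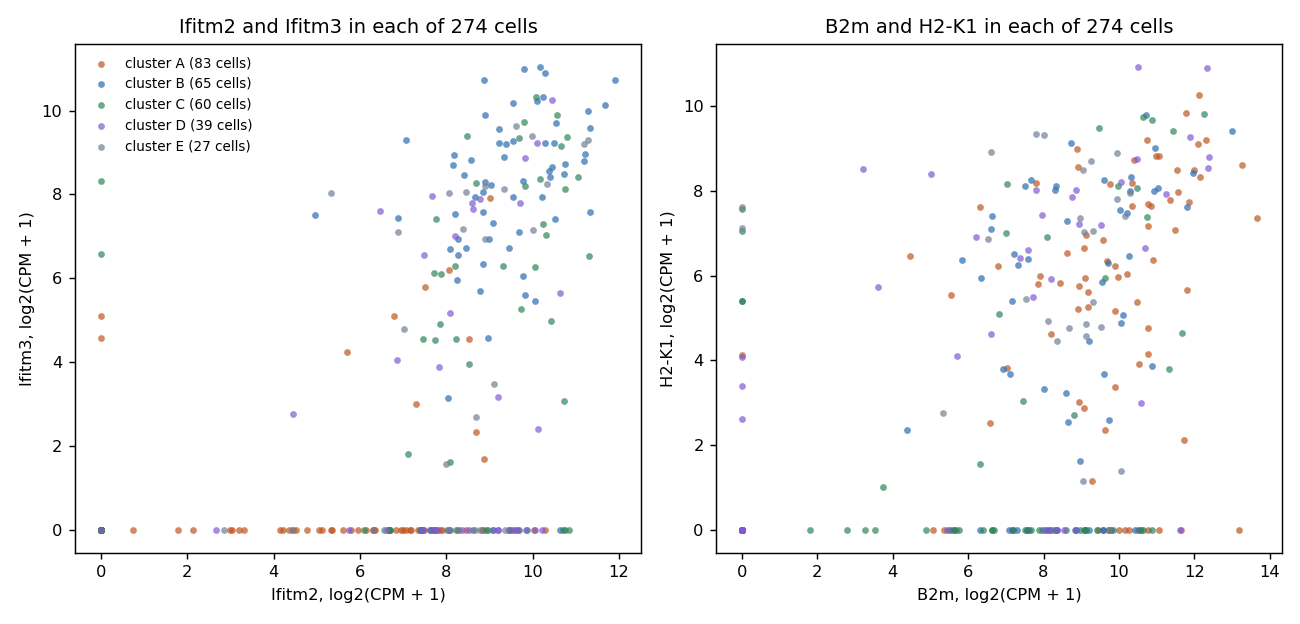
Each point is 1 of the 274 kept cells, coloured by cluster, at its log2(CPM + 1) of Ifitm2 and Ifitm3 (left) and of B2m and H2-K1 (right). Most cells of cluster A lie on the line without Ifitm3 (11 of 83 had a count), cells of cluster B lie high for both Ifitm genes (61 of 65 had an Ifitm3 count), and in the right panel the clusters are mixed.

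Between the 2 sets the values were lower. B2m with Ifitm2 had a mean rho of -0.096, below 0 on all 4 plates, and Jak1 with Ifitm2 had the lowest of the 55 means at -0.154, also below 0 on all 4 plates. Within plate and cluster the sign of B2m with Ifitm2 turned, to a mean rho of 0.0996 with 10 of 15 groups above 0, and that of B2m with Ifitm3 went from -0.059 to 0.063, while Jak1 with Ifitm2 stayed below 0 at -0.136. Depth moved with some of these genes, since the mean rho with the cell's total count was 0.238 for B2m, -0.367 for Ifitm2 and -0.211 for Ifitm3, and its part in the pairs across the sets was not tested beyond the thinning. Outside the members, the genes most like the mean standardised level of the 11 members over the cells of a plate were Apoe (mean rho 0.491), Gstp1 (0.436), Aldh3a1 (0.428), Efnb2 (0.424) and Ppp1ca (0.412).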

How the data were processed

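Single tdTomato-positive cells of mouse tail epidermis were sequenced with a modified Smart-seq2 protocol without molecular identifiers. The authors mapped single-end reads of 75 bases to the GRCm38 transcriptome with Salmon 0.13.1, per the labels, and deposited a table of estimated counts for each symbol in each cell, without normalization. Of the values above 0, 18.3% were not whole. The strand setting and the treatment of multimapping reads beyond Salmon's own estimate are not given in the sources used here. Intervals and limits cover counting error only.

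Cells with at least 1000 genes and at most 50% mitochondrial counts were kept (274 of 289, with 9796 to 3029822 counts each). Counts were summed per plate, or per plate and cluster, rounded, filtered (filterByExpr), scaled by TMM factors and tested with edgeR 4.0.16 in R 4.3.3 (quasi-likelihood test, Benjamini-Hochberg adjustment over all genes tested, threshold 0.05). The standard error was the log2 fold change divided by the square root of F. DESeq2 1.42.0 and limma 3.58.1 gave alternatives. The steps were tested on simulated data. Clusters were formed with Leiden (2000 variable genes, 15 components, resolution 0.5, chosen after a higher resolution gave clusters with few cells per plate), without the members and other pathway genes. For the clustering, each gene was standardised over the cells of each replicate number, vehicle and PRT4165 cells together. A cluster was tested where each plate gave it at least 5 cells, with the plate as a term.

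The labels give each plate a batch tag, replicate 1 or replicate 2, in both treatments. Apart from the scaling before clustering, same-tagged plates were taken as pairs only in the fits with a replicate block. Their deviations from the group means had a Pearson correlation of 0.0206, which with 2 plates a group is a single value. Since no plate held both treatments, treatment and plate cannot be told apart within a replicate number.

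The members, lists and tests were chosen with earlier results of these data known. Members were named by rule as the 3 highest members of each role, the 5 of smallest p in the treatment test and the 5 of smallest p per pair of clusters. The former groups are given on every plate. The last are given by values, ranges or log2 differences, though not for every pair in which they ranked. The IRF core search was added after the sequences were read. Some genes of the table are not reported here.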

Additional observations from a re-analysis of the deposited data

How the results depend on the processing

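For PRT4165 against vehicle, 0 members were called under every alternative run, including RLE size factors, no filter on low counts, DESeq2, limma on equally weighted cells and each plate left out, where the lone plate of a treatment is assumed to vary like the others. With the replicate block it was also 0, and the block changed no call. The tests within clusters and of the interaction likewise gave 0 members under each alternative run for them. The 4 calls between clusters (Ifitm2 and Ifitm3, A against B and A against C) became 1 without the filter on low counts, 2 with the members left in the clustering and 0 with any plate left out (0 to 0). They were 3 with RLE size factors and 5 in thinned cells.

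The median rho of the member pairs was 0.040 in thinned cells (0.035 for all genes), 0.081 for members in at least 50% of cells (0.051 for all genes), 0.027 within plate and cluster, chosen after seeing the data, and 0.048 to 0.066 with each plate left out.

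Some fold changes with no call changed sign. Those of the members whose treatment fold change is printed above follow, and several members not printed there also changed sign. With equally weighted cells, Psme1 was 0.31, Psme2 -0.16 and Parp14 -1.09. Parp14 was also -0.16 with the replicate block and -1.92 without the sebaceous gland-like cells, an alternative chosen after seeing the data. With the highest cell of each plate left out, Ifi27 was -0.24, Ifi35 0.03, Psme1 0.05, Parp14 -0.18 and Ifitm3 0.00. With each plate left out, the log2 fold change ran from -1.37 to 0.11 for B2m, -0.49 to 0.14 for H2-K1, -0.85 to 0.37 for Psme1, -0.43 to 0.73 for Psme2, -0.72 to 0.23 for Jak1, -0.17 to 0.27 for Ifi27, -1.27 to 0.22 for Ifi35, -0.99 to 0.61 for Parp14, -0.28 to 0.14 for Ifitm2 and -4.71 to 0.45 for Irf7. The cause of these changes was not tested.

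In thinned cells the share of cells with a count moved for 6 of 18 named members, all downward. Irf9, Irf7 and Ifngr1 had counts in 19, 6 and 29 cells, so single cells weigh heavily in their values.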
